A study of Mus musculus with 14 samples.

Results

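The genes described here are 40 genes of cell division, taken by name from a table of 22430 genes: 25 that act in mitosis, 13 that copy DNA or supply its building blocks in S phase, and the transcription factors Foxm1 and Mybl2. They were measured by RNA sequencing in the aortic intima, the inner lining of the vessel, of Apoe-/- mice, which lack apolipoprotein E and are prone to atherosclerosis. All 40 were among the 14269 genes with enough counts to be tested. Within the ubiquitous progerin libraries alone, and within the wild-type libraries alone, 39 would have been kept, Bub1 being the exception.

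The 4 genotypes compared were all Apoe-/-. Ubiquitous progerin mice (Apoe-/-LmnaG609G/G609G, 3 libraries) make progerin, a shortened and permanently farnesylated lamin A, in every cell that uses Lmna, and were set against wild-type control mice (Apoe-/-Lmna+/+, 4 libraries). VSMC progerin mice (Apoe-/-LmnaLCS/LCS SM22Cre, 3 libraries) make progerin where a Cre recombinase under the SM22 promoter is active, that is in vascular smooth muscle cells (VSMC) and other cells that use this promoter. They were set against lamin C-only control mice (Apoe-/-LmnaLCS/LCS, 4 libraries), which have the same Lmna alleles and no Cre and so make lamin C but no lamin A or progerin, as do the cells of VSMC progerin mice that Cre did not reach. Each library was made from 100 ng of total RNA of a pool of 12 to 14 mice, so that p-values measure the spread between pools. The labels used here give neither age nor sex.

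Cells that divide switch on these genes in waves. At the G1/S boundary E2F factors turn on the MCM helicase subunits, the clamp Pcna and the enzymes that make deoxynucleotides, and later a complex of MuvB proteins with Mybl2 and then Foxm1 turns on the cyclins, kinases, motors and checkpoint proteins of G2 and mitosis. In quiescent cells the DREAM complex, which is MuvB with a pocket protein and an E2F, holds both waves down. The adult aortic endothelium is mostly quiescent, while macrophages of atherosclerotic plaques can divide in place.

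Library totals ran from 27169784 to 35692385 estimated counts. Levels are CPM, counts per 1000000 of a library total that was scaled with trimmed means (TMM). The 10 endothelial markers were abundant in every library. They summed to 20444 to 21506 CPM in ubiquitous progerin, against 22690 to 24496 CPM in wild-type control (4 called higher, 4 lower), and to 21068 to 22056 CPM in VSMC progerin, against 21730 to 23738 CPM in lamin C-only control (3 called higher, 5 lower). Lmna averaged 118 ± 3.34 CPM in ubiquitous progerin, against 119 ± 5.01 CPM in wild-type control (SD, n = 3 and 4). It averaged 227 ± 25.6 CPM in VSMC progerin, against 132 ± 6.70 CPM in lamin C-only control (SD, n = 3 and 4). Counts per gene do not tell progerin from other lamin transcripts. Apoe was at 44.5 to 72.1 CPM in all libraries. Macrophage markers moved with progerin in both models: 12 of 12 were called higher, and their sum was 724 to 1198 CPM in ubiquitous progerin against 74.4 to 145 CPM in wild-type control, and 594 to 694 CPM in VSMC progerin against 69.3 to 225 CPM in lamin C-only control. The 5 erythroid markers summed to 8556 CPM in VSMC progerin pool 3 and to 465 and 571 CPM in the other VSMC progerin pools, against 312 to 586 CPM in lamin C-only control, and all 5 were called higher. Of the fibroblast and adipocyte markers, 3 of 7 fibroblast markers and 3 of 4 adipocyte markers were called higher in VSMC progerin, with sums of 861 to 987 CPM and 120 to 201 CPM, against 369 to 631 CPM and 16.2 to 99.3 CPM in lamin C-only control. Of 9 T and B lymphocyte markers 7 were tested, and these summed to 6.27 to 14.7 CPM in ubiquitous progerin, against 2.89 to 4.57 CPM in wild-type control (2 called higher, 1 lower), and to 8.33 to 11.2 CPM in VSMC progerin, against 2.37 to 5.48 CPM in lamin C-only control (3 called higher). The 8 smooth muscle markers summed to 936 to 983 CPM in ubiquitous progerin, against 492 to 830 CPM in wild-type control (1 called higher, 3 lower), and to 319 to 383 CPM in VSMC progerin, against 398 to 561 CPM in lamin C-only control (3 called lower). Of 6 neutrophil markers 3 were tested, and these summed to 7.01 to 8.94 CPM in ubiquitous progerin, against 0.635 to 2.44 CPM in wild-type control (3 called higher), and to 0.882 to 3.09 CPM in VSMC progerin, against 0.271 to 1.40 CPM in lamin C-only control (1 called higher). Mpo, which was not tested, was at 0 in all groups. The part of these cells in the results below was not tested, and in bulk RNA fewer or more cells of a type and less or more RNA per cell cannot be told apart.

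The promoters show what the mitotic and the S-phase genes share in sequence. RefSeq promoters (GRCm38.p6, 250 bases before to 50 bases after the start) were found for 33 of the 40 genes, 21 of them mitotic and 11 S-phase. The letters searched, on both strands, were those of the CHR element that MuvB binds (TTTGAA or TTTAAA), the CCAAT box, and E2F letters (TTTGGCGC, TTTGCCGC, TTTCGCGC or TTTCCCGC). CHR letters occurred in 19 of 21 mitotic promoters (90.5%), in 5 of 11 S-phase promoters (45.5%) and in 27.8% of all 27025 promoters of the same length. CCAAT occurred in 85.7% of the mitotic and 81.8% of the S-phase promoters, against 37.9% of all. Both together stood in 17 of 21 mitotic and 4 of 11 S-phase promoters, against 10.9% of all. E2F letters occurred in 1 mitotic promoter, that of Cdk1, and in 4 S-phase promoters, those of Mcm3, Mcm5, Mcm6 and Mcm7 (36.4%), against 2.32% of all. A match is a run of letters, not a shown binding site.

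Shown here are the 120 bases before the start of 4 mitotic genes that were strongly higher in VSMC progerin and of 2 MCM genes that were not, chosen after their values were seen. All 4 mitotic stretches hold CHR letters and the 2 MCM stretches do not, but this does not hold for the other genes. Over the same 120 bases Prc1, Kif23, Bub1b, Cenpf, Cenpe, Birc5, Ccnb2, Hmmr and Anln, also called higher, hold no CHR letters. Their promoters do hold them outside this stretch. In Prc1 the letters begin at -5 and run past the start. In Kif23, Bub1b, Cenpf, Cenpe, Ccnb2, Hmmr and Anln they lie after the start, and in Birc5, Cenpf and Ccnb2 further upstream. Mcm2, which was not called, holds them. The sequences are written 5′ to 3′ on the gene's strand, with the searched letters in capitals. TTCAAA is the CHR and ATTGG the CCAAT box read on the other strand. In Mcm6, 2 E2F matches overlap in TTTGGCGCGAAA, and the E2F letters of Mcm3 lie after its start, outside the stretch shown. The regions are chr11:99024190-99024309 (Top2a, minus strand), chr10:69352913-69353032 (Cdk1, minus), chr19:37376262-37376381 (Kif11, plus), chr7:135716380-135716499 (Mki67, minus), chr1:128359706-128359825 (Mcm6, minus) and chr1:20820313-20820432 (Mcm3, minus).
Top2a: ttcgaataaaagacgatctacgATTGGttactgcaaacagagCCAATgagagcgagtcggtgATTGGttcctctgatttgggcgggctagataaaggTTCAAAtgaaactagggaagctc
Cdk1: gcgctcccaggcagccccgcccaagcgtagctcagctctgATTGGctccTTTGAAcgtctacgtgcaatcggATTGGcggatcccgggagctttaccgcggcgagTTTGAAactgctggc
Kif11: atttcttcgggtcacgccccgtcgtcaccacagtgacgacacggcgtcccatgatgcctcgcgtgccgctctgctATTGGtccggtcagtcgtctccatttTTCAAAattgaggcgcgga
Mki67: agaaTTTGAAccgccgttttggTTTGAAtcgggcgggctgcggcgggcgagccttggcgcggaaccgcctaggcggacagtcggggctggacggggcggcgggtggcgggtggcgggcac
Mcm6: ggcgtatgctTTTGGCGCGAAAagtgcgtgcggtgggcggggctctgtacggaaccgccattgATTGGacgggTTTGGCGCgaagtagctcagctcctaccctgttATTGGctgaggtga
Mcm3: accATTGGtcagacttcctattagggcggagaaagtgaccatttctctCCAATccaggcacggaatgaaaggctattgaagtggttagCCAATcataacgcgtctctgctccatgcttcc

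The first comparison asked what progerin made where SM22Cre is active did to the intima. Cre was present in all VSMC progerin libraries and in no other group, so effects of Cre and of progerin cannot be told apart. Mitotic genes were higher together in VSMC progerin: 20 of 25 rose and none fell, with a median log2 fold change of 1.71, while 19.0% of all tested genes were called higher, 23.0% lower (42.0% in either direction), and their median was -0.03. The 25 genes summed to 202, 189 and 204 CPM in the VSMC progerin pools, against 70.1, 58.0, 72.4 and 74.7 CPM in the lamin C-only pools. Every VSMC progerin pool was therefore far above every control pool, and pool 3, the one rich in erythroid RNA, was like the other VSMC progerin pools. Without that pool 18 of the 25 were still called. Libraries did not overlap, and were higher in VSMC progerin, for 21 of the 25 mitotic genes and for 20.7% of all genes tested.

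Mki67, which encodes the Ki-67 antigen used to mark dividing cells (chr7:135689784-135716361), had 34.8, 27.8 and 26.6 CPM in VSMC progerin, against 5.78, 5.31, 7.02 and 8.18 CPM in lamin C-only control. The groups stood well apart, and the log2 fold change was 2.18 ± 0.36 (SE, adjusted p = 4e-04, edgeR's quasi-likelihood test, adjusted after Benjamini and Hochberg over all genes tested, as for every adjusted p below). Top2a, the topoisomerase that untangles replicated chromosomes (chr11:98992943-99024189), had 22.4, 20.5 and 20.99 CPM in VSMC progerin, against 5.31, 4.26, 6.83 and 5.91 CPM in lamin C-only control. Its pools were close together within each group, and it rose by 1.93 ± 0.25 on the log2 scale (SE, adjusted p = 9.2e-06).

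The cyclins and the kinase that drive entry into mitosis rose to a like degree, by log2 fold changes of 1.81 to 2.15 for all 4. Cdk1, that kinase (chr10:69335146-69352938), had 6.17, 5.50 and 4.96 CPM in VSMC progerin, against 1.15, 1.49, 1.82 and 1.78 CPM in lamin C-only control. Ccnb1, its B-type cyclin (chr13:100778650-100786570), had 5.14, 4.31 and 4.64 CPM in VSMC progerin, against 1.37, 1.31, 0.868 and 0.674 CPM in lamin C-only control. Neither gene's groups overlapped, and the log2 fold changes were 1.83 ± 0.38 (SE, adjusted p = 0.00059) for Cdk1 and 2.15 ± 0.41 (SE, adjusted p = 0.00027) for Ccnb1. Ccna2, the A-type cyclin that acts from S phase on, averaged 11.02 ± 1.04 CPM in VSMC progerin, against 3.15 ± 0.96 CPM in lamin C-only control (SD, n = 3 and 4).

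**Figure D1:**
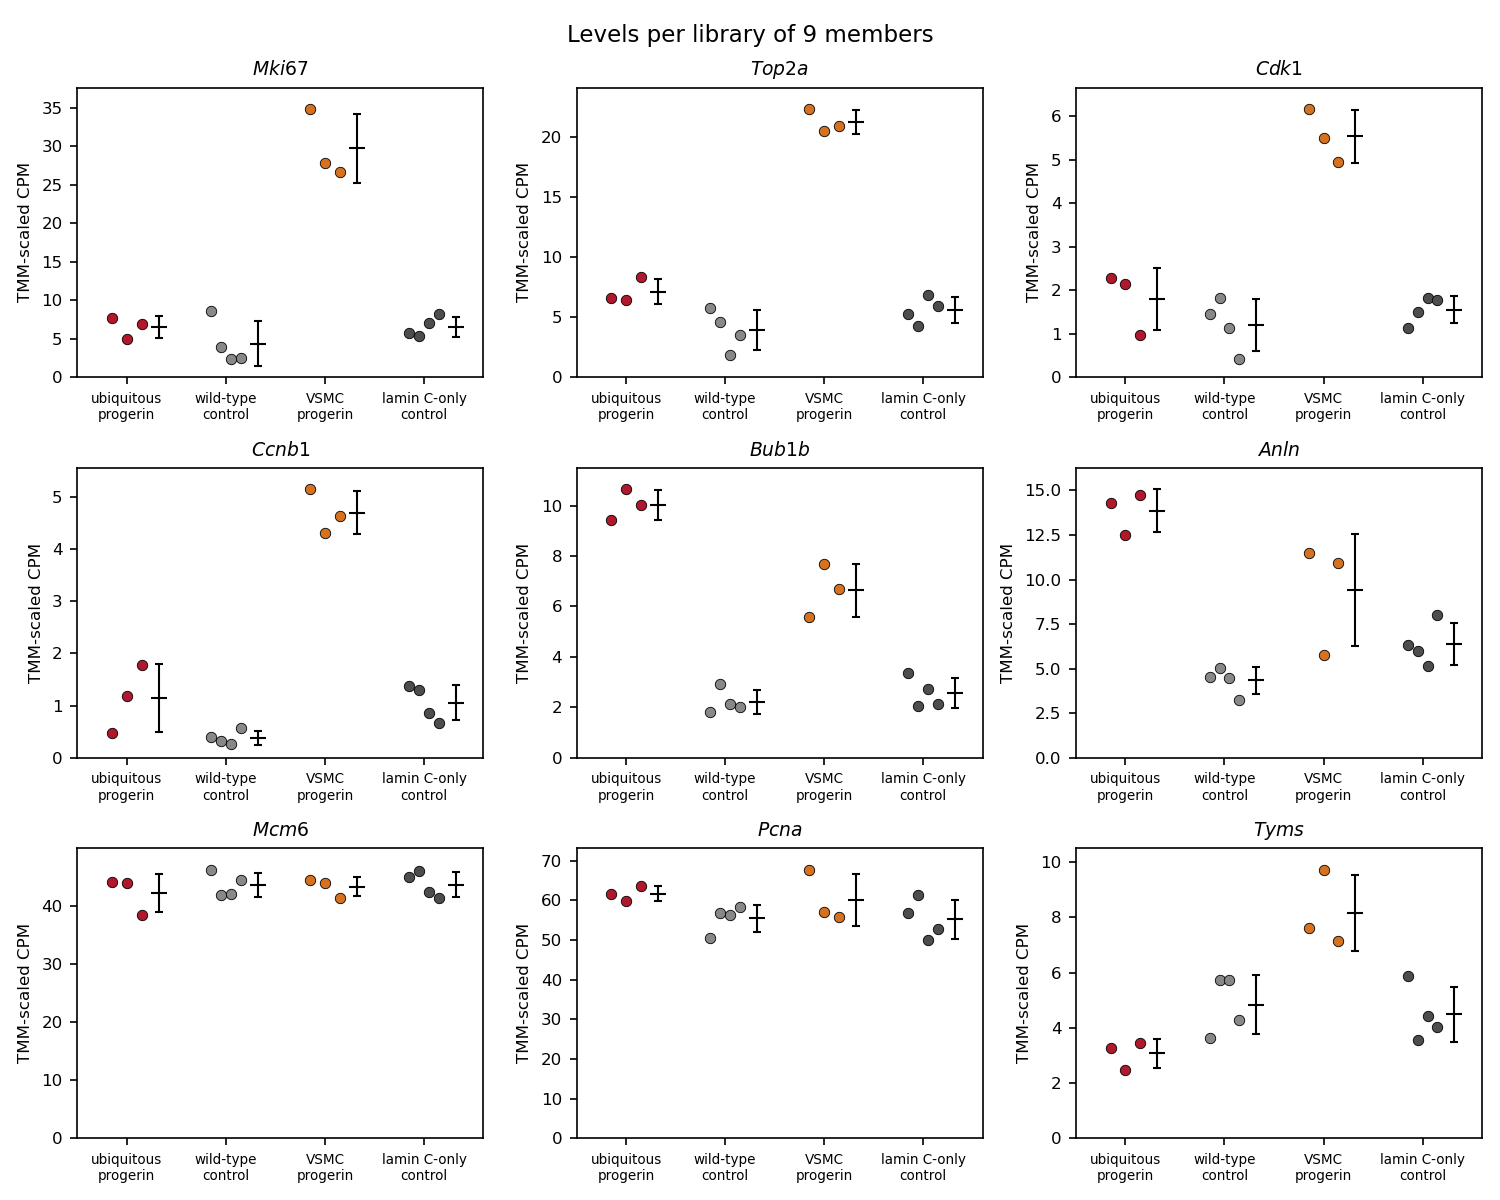
TMM-scaled CPM (y axis) of 9 genes in each library, by group (x axis); points are pools of mice and the cross with bars is the mean ± SD of each group. Mki67, Top2a, Cdk1 and Ccnb1 stand apart in VSMC progerin, Bub1b and Anln are highest in ubiquitous progerin, the groups of Mcm6 overlap, Pcna lies at 50.04 to 67.7 CPM in all libraries, and Tyms lies on opposite sides of its controls.

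The chromosomal passenger complex, which corrects wrong attachments of chromosomes to the spindle, had the largest change of any of the 40. Aurkb, its kinase, averaged 3.76 ± 0.74 CPM in VSMC progerin, against 0.705 ± 0.119 CPM in lamin C-only control (SD, n = 3 and 4), a log2 fold change of 2.41 ± 0.40 (SE, adjusted p = 5.6e-05). Birc5 (survivin), a subunit of the same complex, rose by 1.79 ± 0.33 on the log2 scale (SE, adjusted p = 0.00017). Of the kinetochore proteins, the motor Cenpe rose by 2.11 ± 0.35 and the scaffold Cenpf by 1.59 ± 0.25 on the log2 scale (SE, adjusted p = 5.8e-05 and 3.5e-05).

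Spindle proteins rose in 6 of 7 cases. Prc1, which bundles microtubules between the separating chromosomes (chr7:80294450-80316259), had 13.8, 15.6 and 16.6 CPM in VSMC progerin, against 5.56, 3.23, 4.36 and 4.41 CPM in lamin C-only control. Kif11, the motor that pushes the spindle poles apart (chr19:37376403-37421859), had 6.76, 5.25 and 6.27 CPM in VSMC progerin, against 1.51, 1.96, 1.27 and 1.59 CPM in lamin C-only control. Both were separate in all pools, and the log2 fold changes were 1.80 ± 0.24 (SE, adjusted p = 4.8e-06) for Prc1 and 1.94 ± 0.28 (SE, adjusted p = 1.1e-05) for Kif11. The motors Kif20a and Kif23 and the spindle assembly factor Tpx2 also rose, by 1.56, 1.36 and 1.89 on the log2 scale. An exon of Prc1 overlaps one of Rccd1 on the other strand. The kit kept strand, but how the counting used it is not stated, so the counts of such pairs may not be fully separate. The same holds for Ccna2, Cdc20, Ube2c, Kif20a, Nusap1, Plk1, Mcm7, Cdc45, Gins2 and Tk1. Of the genes with an overlap on the other strand, Prc1, Ccna2, Ube2c, Kif20a, Nusap1, Mcm7 and Gins2 had fractions in their estimated counts. The lowest and highest counts of each group were whole numbers for Cdc20, Plk1, Cdc45 and Tk1. Foxm1, Top2a and Mcm7 overlap genes on their own strand.

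The other 5 mitotic genes were not called. They were the checkpoint kinase Bub1, the kinases Aurka and Plk1, the activator Cdc20 of the anaphase-promoting complex, and the microtubule protein Nusap1, with log2 fold changes between 0.42 (Cdc20) and 1.05 (Bub1) and adjusted p of 0.083 to 0.19. Aurka had 3.16, 2.00 and 3.37 CPM in VSMC progerin, against 1.90, 1.80, 1.41 and 1.99 CPM in lamin C-only control, so that its groups just missed overlapping. Of the genes called, 18 were called under each of 23 alternative settings. Hmmr, a spindle protein, lost its call without VSMC progerin pool 3 (log2 fold change 1.47, adjusted p = 0.054). Anln, an actin-binding protein of the cleavage furrow, had 11.5, 5.78 and 10.9 CPM in VSMC progerin, against 6.31, 5.998, 5.18 and 7.998 CPM in lamin C-only control. Its pool 2 lay among the controls. Anln rose by 0.56 ± 0.21 on the log2 scale (SE, adjusted p = 0.037), a call lost in 9 of 23 settings (adjusted p 0.061 to 0.18), among them those without VSMC progerin pool 1 or 3 or lamin C-only pool 1, 2 or 3.

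**Figure D2:**
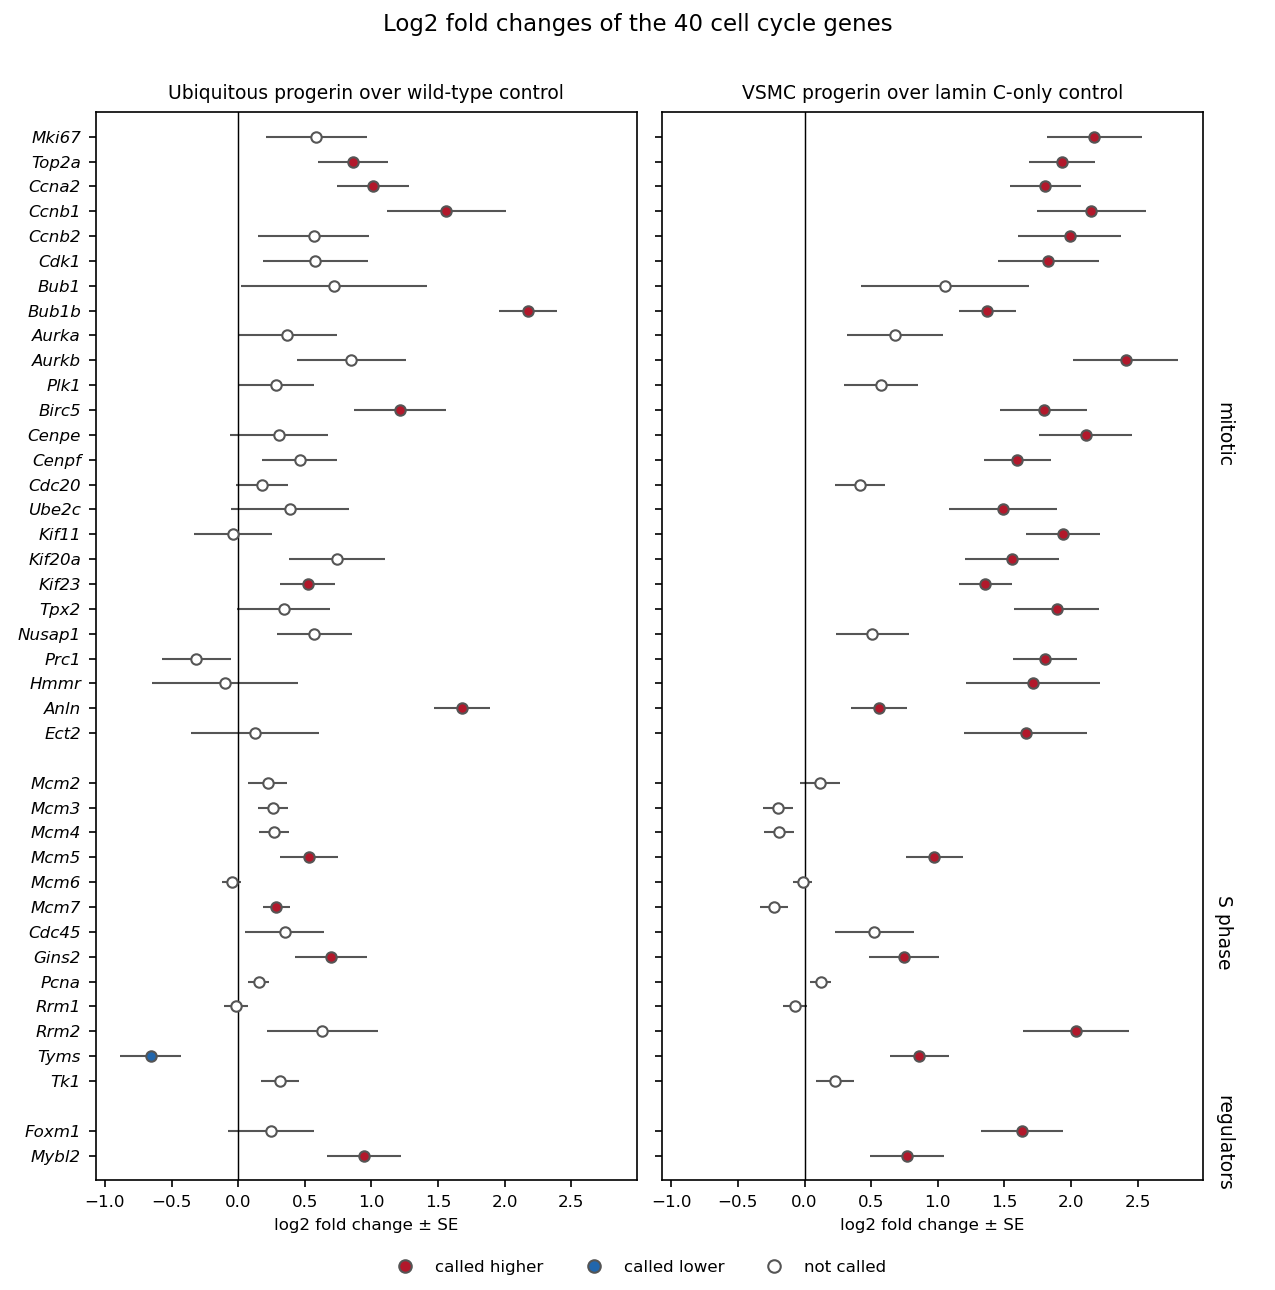
Log2 fold change ± SE (x axis) of each of the 40 genes (rows: mitotic, S phase, regulators) for ubiquitous progerin over wild-type control (left) and VSMC progerin over lamin C-only control (right); filled points passed an adjusted p of 0.05. In the right panel 20 of 25 mitotic genes are called higher against 4 of 13 S-phase genes, and in the left panel 7 and 3.

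As a set, S-phase genes did not follow the mitotic ones in VSMC progerin. Of 13, 4 rose and none fell, with a median log2 fold change of 0.12, and their sum was 251, 237 and 240 CPM in VSMC progerin, against 235, 232, 224 and 228 CPM in lamin C-only control. The share of 4 in 13 is somewhat above the 19.0% of all genes called higher, on few genes, and well under the mitotic 20 of 25. That none fell compares with 23.0% of all genes called lower. By these sums, the mitotic sum per 100 CPM of S-phase sum was 80.3, 79.7 and 85.0 in VSMC progerin, against 29.9, 25.02, 32.2 and 32.7 in lamin C-only control. The S-phase sum rests largely on abundant genes, with means of 60.2 CPM for Pcna, 43.3 for Mcm6 and 29.8 for Rrm1 in VSMC progerin. The 4 genes that rose, Mcm5, Gins2, Rrm2 and Tyms, had means of 3.92 to 12.8 CPM there. The sum and the ratio therefore give their rise little weight.

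Among the 6 MCM subunits, which form the helicase that opens DNA at origins, only Mcm5 was called. Mcm5 (chr8:75109569-75128439) had 10.4, 7.47 and 9.51 CPM in VSMC progerin, against 4.55, 5.35, 5.23 and 3.43 CPM in lamin C-only control. All its VSMC progerin pools were above the controls, with a log2 fold change of 0.97 ± 0.21 (SE, adjusted p = 0.001). Mcm2 (chr6:88883474-88898780) had 9.81, 9.09 and 7.47 CPM in VSMC progerin, against 8.38, 6.74, 7.997 and 9.29 CPM in lamin C-only control. Its groups overlapped. Mcm6 averaged 43.3 ± 1.65 CPM in VSMC progerin, against 43.7 ± 2.15 CPM in lamin C-only control (SD, n = 3 and 4). The 95% interval of its log2 fold change ran from -0.16 to 0.13, so a change of the size seen for Mki67 lies outside it. Mcm3, Mcm4 and Mcm7 had log2 fold changes of -0.20, -0.19 and -0.23 (adjusted p = 0.17, 0.19 and 0.079).

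Pcna, the clamp that holds polymerases on DNA (chr2:132249162-132253314), had 67.7, 57.0 and 55.8 CPM in VSMC progerin, against 56.9, 61.4, 50.04 and 52.9 CPM in lamin C-only control. These groups overlapped, and the 95% interval of the log2 fold change ran from -0.04 to 0.29. Per kilobase of exon, Pcna and Mcm6 were the most abundant of the 40 in every group, at 25.1 and 9.27 CPM per kb in VSMC progerin and 23.0 and 9.36 CPM per kb in lamin C-only control, while Mki67 was at 2.95 and 0.654. Gins2, a subunit of the replicative helicase complex, rose by 0.75 ± 0.26 on the log2 scale (SE, adjusted p = 0.032), a call lost in 5 settings, those without VSMC progerin pool 1 or 2 or lamin C-only pool 1, 2 or 3 (adjusted p 0.052 to 0.15).

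The enzymes that supply deoxynucleotides split. Rrm2, the regulated subunit of ribonucleotide reductase (chr12:24708241-24714146), had 3.12, 3.72 and 4.93 CPM in VSMC progerin, against 0.922, 0.901, 0.949 and 1.04 CPM in lamin C-only control. Every VSMC progerin pool was far above all 4 controls, and the log2 fold change was 2.04 ± 0.40 (SE, adjusted p = 0.00033), close in size to Cdk1 and Ccnb1. Rrm1, the large subunit of the same enzyme, averaged 29.8 ± 3.24 CPM in VSMC progerin, against 31.4 ± 2.20 CPM in lamin C-only control (SD, n = 3 and 4), with a log2 fold change of -0.07 ± 0.09 (SE, adjusted p = 0.55). Tyms, thymidylate synthase (chr5:30058202-30073617), had 7.60, 9.72 and 7.16 CPM in VSMC progerin, against 5.87, 3.57, 4.45 and 4.04 CPM in lamin C-only control. It rose by 0.86 ± 0.22 on the log2 scale (SE, adjusted p = 0.0033). Mcm5, Rrm2 and Tyms were called under all 23 settings.

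Both regulators rose in VSMC progerin. Foxm1, which drives G2 and mitotic genes (chr6:128362967-128376146), had 8.34, 5.47 and 8.75 CPM in VSMC progerin, against 2.51, 1.77, 3.09 and 2.30 CPM in lamin C-only control, with no overlap and a log2 fold change of 1.63 ± 0.31 (SE, adjusted p = 0.00024). Mybl2, the Myb factor that joins MuvB (chr2:163054687-163084688), had 2.75, 2.91 and 3.31 CPM in VSMC progerin, against 1.31, 1.62, 1.79 and 2.30 CPM in lamin C-only control. Its pools were also separate, but the difference was smaller, 0.77 ± 0.28 on the log2 scale (SE, adjusted p = 0.033), and 8 settings lost the call (adjusted p 0.051 to 0.099), among them those without VSMC progerin pool 2 or 3 or lamin C-only pool 1, 2 or 3.

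The second comparison asked what progerin made in all cells did to the intima. Here 7 of 25 mitotic genes rose and none fell, with a median log2 fold change of 0.57, while 26.3% of all tested genes were called higher, 28.3% lower (54.6% in either direction), and their median was 0.00. A share of 7 in 25 is near that background, and so is the number of mitotic genes whose libraries did not overlap and were higher, also 7 of 25, against 28.2% of all genes tested. The mitotic sum was 84.7, 76.4 and 86.4 CPM in ubiquitous progerin, against 57.2, 53.3, 36.2 and 45.5 CPM in wild-type control. The ubiquitous progerin pools lay above all wild-type pools, and their macrophage marker sums are given above. Much of the difference in the mitotic sum comes from Bub1b and Anln. The means of these genes were 10.02 and 13.9 CPM in ubiquitous progerin, against 2.22 and 4.34 CPM in wild-type control.

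The clearest differences were those of 2 genes. Bub1b (BubR1), a brake of the spindle checkpoint (chr2:118598211-118641591), had 9.41, 10.6 and 10.02 CPM in ubiquitous progerin, against 1.81, 2.92, 2.15 and 2.00 CPM in wild-type control. Anln (chr9:22332012-22389188) had 14.3, 12.53 and 14.8 CPM in ubiquitous progerin, against 4.54, 5.06, 4.49 and 3.27 CPM in wild-type control. The groups were far apart for both, and the log2 fold changes were 2.17 ± 0.22 (SE, adjusted p = 5.7e-08) for Bub1b and 1.68 ± 0.21 (SE, adjusted p = 1.2e-06) for Anln. Both genes also rose in VSMC progerin, Bub1b by 1.37 ± 0.21 on the log2 scale (SE, adjusted p = 3.2e-05).

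Ccna2 averaged 5.47 ± 0.71 CPM in ubiquitous progerin, against 2.71 ± 0.97 CPM in wild-type control, and Birc5 averaged 1.93 ± 0.0825 CPM in ubiquitous progerin, against 0.833 ± 0.327 CPM in wild-type control (SD, n = 3 and 4), log2 fold changes of 1.01 ± 0.27 and 1.22 ± 0.35 (SE, adjusted p = 0.0037 and 0.0056). These 2 genes, Bub1b and Anln were called under all 23 settings. Ccnb1 had 0.477, 1.19 and 1.78 CPM in ubiquitous progerin, against 0.390, 0.320, 0.260 and 0.571 CPM in wild-type control. Top2a had 6.65, 6.41 and 8.38 CPM in ubiquitous progerin, against 5.74, 4.65, 1.82 and 3.56 CPM in wild-type control. Pool 1 of Ccnb1 lay inside the control range, whereas all Top2a pools were above it. Both were called, with log2 fold changes of 1.56 ± 0.45 (SE, adjusted p = 0.0059) and 0.86 ± 0.26 (SE, adjusted p = 0.01), and both lost the call without ubiquitous progerin pool 3, at 1.10 (adjusted p = 0.065) and 0.74 (adjusted p = 0.051). Without that pool 4 mitotic genes were called. Kif23 rose by 0.52 ± 0.21 on the log2 scale (SE, adjusted p = 0.038), a call lost in 8 settings (adjusted p 0.05 to 0.11), among them those without any 1 of the ubiquitous progerin pools or without wild-type pool 2 or 3.

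Mki67 and Cdk1 were not called in ubiquitous progerin. Mki67 had 7.74, 4.93 and 6.91 CPM there, against 8.61, 3.97, 2.44 and 2.48 CPM in wild-type control, where pool 1 was the highest of all 7. Its log2 fold change was 0.59 ± 0.38 (SE, adjusted p = 0.22), and without wild-type pool 1 it was 1.14 (adjusted p = 0.00031). Wild-type pool 1 also had a count for 14328 genes, against 15188 to 15233 in the other wild-type pools. Cdk1 had 2.28, 2.15 and 0.977 CPM in ubiquitous progerin, against 1.45, 1.83, 1.14 and 0.413 CPM in wild-type control, and the groups overlapped (log2 fold change 0.58 ± 0.39, SE, adjusted p = 0.23). Kif11 and Prc1 had log2 fold changes of -0.04 ± 0.29 and -0.31 ± 0.26 (SE, adjusted p = 0.92 and 0.32); without ubiquitous progerin pool 1, Prc1 was called lower at -0.69 (adjusted p = 0.039).

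Of the 13 S-phase genes, 3 rose and 1 fell in ubiquitous progerin, with a median log2 fold change of 0.27. Neither count is above the 26.3% of all tested genes called higher and the 28.3% called lower. None of these 4 calls held in all settings. Their sum was 250, 244 and 261 CPM in ubiquitous progerin, against 225, 235, 221 and 222 CPM in wild-type control, and all 3 pools were above all 4 controls. The 6 MCM genes summed to 135 ± 4.58 CPM in ubiquitous progerin, against 119 ± 6.80 CPM in wild-type control (SD, n = 3 and 4). Mcm7 averaged 28.6 ± 5.19 CPM in ubiquitous progerin, against 23.4 ± 1.37 CPM in wild-type control (SD, n = 3 and 4), and its rise of 0.29 ± 0.10 on the log2 scale (SE, adjusted p = 0.021) became 0.14 (adjusted p = 0.25) without ubiquitous progerin pool 3 and 0.25 (adjusted p = 0.06) without wild-type pool 4. Mcm2 had 10.3, 9.71 and 10.6 CPM in ubiquitous progerin, against 10.3, 8.59, 8.23 and 7.91 CPM in wild-type control, and was not called (log2 fold change 0.22 ± 0.15, SE, adjusted p = 0.21).

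Mcm5 had 8.53, 6.38 and 6.11 CPM in ubiquitous progerin, against 6.52, 5.19, 4.07 and 3.65 CPM in wild-type control. The groups overlapped, its log2 fold change was 0.53 ± 0.22 (SE, adjusted p = 0.045), and 10 settings lost the call (adjusted p 0.05 to 0.22), 8 of them by leaving out 1 pool: ubiquitous progerin pool 1 or 2, wild-type pool 2, 3 or 4, VSMC progerin pool 3 or lamin C-only pool 1 or 3. Gins2 rose by 0.70 ± 0.27 on the log2 scale (SE, adjusted p = 0.039), and 7 settings lost that call (adjusted p 0.053 to 0.15), 5 of them without ubiquitous progerin pool 1 or 2 or wild-type pool 1, 3 or 4. Tyms had 3.27, 2.48 and 3.46 CPM in ubiquitous progerin, against 3.61, 5.73, 5.73 and 4.29 CPM in wild-type control. All 3 were below the controls, and Tyms fell by 0.66 on the log2 scale (SE 0.23, adjusted p = 0.021), a call lost with limma-voom and without ubiquitous progerin pool 2 or wild-type pool 2 or 3 (adjusted p 0.051 to 0.1). It was the 1 gene of the 40 called lower in either progerin group.

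Pcna had 61.5, 59.9 and 63.7 CPM in ubiquitous progerin, against 50.6, 56.7, 56.2 and 58.4 CPM in wild-type control. Its pools did not overlap, yet it was not called (log2 fold change 0.15 ± 0.08, SE, adjusted p = 0.11). Rrm2 had 0.818, 1.59 and 0.768 CPM in ubiquitous progerin, against 0.709, 1.03, 0.325 and 0.667 CPM in wild-type control, and was not called either (0.63 ± 0.42, SE, adjusted p = 0.21). Mybl2 had 3.27, 4.23 and 3.35 CPM in ubiquitous progerin, against 2.37, 1.70, 2.05 and 1.40 CPM in wild-type control, and rose by 0.94 ± 0.28 on the log2 scale (SE, adjusted p = 0.0075) under all settings. Foxm1 had 2.42, 1.59 and 2.55 CPM in ubiquitous progerin, against 1.63, 2.92, 1.85 and 0.984 CPM in wild-type control, and its groups overlapped (0.25 ± 0.32, SE, adjusted p = 0.55).

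The difference between both effects was tested in the same fit, as the log2 fold change in ubiquitous progerin minus that in VSMC progerin. Both effects have their own controls and share no library. Of the 25 mitotic genes, 9 had a smaller effect in ubiquitous progerin and 2 a larger one, with a median difference of -1.07, against 21.8% of all tested genes with a smaller effect and 22.4% with a larger one (44.2% in either direction). The smaller effects were those of Mki67, Top2a, Aurkb, Cenpe, Cenpf, Kif11, Kif23, Tpx2 and Prc1. The differences of Prc1 (-2.11 ± 0.35, SE, adjusted p = 6.3e-05), Kif11 (-1.98 ± 0.41, SE, adjusted p = 0.00048), Cenpe (-1.80 ± 0.51, SE, adjusted p = 0.0066) and Tpx2 (-1.55 ± 0.47, SE, adjusted p = 0.011) were called under all 22 alternative settings run for this difference. Mki67 differed by -1.59 ± 0.53 (SE, adjusted p = 0.028) and Top2a by -1.07 ± 0.36 (SE, adjusted p = 0.024), and each lost the call in 4 settings: Mki67 without ubiquitous progerin pool 2, VSMC progerin pool 1 or lamin C-only pool 1 or 2 (adjusted p 0.051 to 0.07), and Top2a without ubiquitous progerin pool 1 or 2 or wild-type pool 2, or with the pool number as a block (adjusted p 0.05 to 0.062). Kif23 lost the call without ubiquitous progerin pool 2, wild-type pool 4 or VSMC progerin pool 2 (adjusted p 0.051 to 0.055), Cenpf without wild-type pool 2 (adjusted p = 0.064), and Aurkb with the block or without ubiquitous progerin pool 3, wild-type pool 1 or 3, VSMC progerin pool 2 or 3 or lamin C-only pool 1 or 2 (adjusted p 0.05 to 0.093). Anln had the larger effect in ubiquitous progerin, by 1.12 ± 0.30 (SE, adjusted p = 0.0046) and under all settings, and so had Bub1b, by 0.80 ± 0.31 (SE, adjusted p = 0.039), which 11 of the 22 settings did not call (adjusted p 0.058 to 0.1), among them 10 that left out 1 of all pools but wild-type pool 2, VSMC progerin pool 2 and lamin C-only pools 2 and 4.

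S-phase genes differed both ways. Mcm3, Mcm4 and Mcm7 had a larger effect in ubiquitous progerin, by 0.46 ± 0.16, 0.46 ± 0.16 and 0.52 ± 0.14 on the log2 scale (SE, adjusted p = 0.024, 0.025 and 0.0062), with a positive value in ubiquitous progerin and a negative one in VSMC progerin, of which only the rise of Mcm7 in ubiquitous progerin was itself called. The difference of Mcm7 was called under all settings. Mcm3 lost the call without ubiquitous progerin pool 1 or 2, wild-type pool 4 or VSMC progerin pool 2, and Mcm4 without ubiquitous progerin pool 3 or VSMC progerin pool 1. With upper-quartile scaling both lost it, at 0.39 (adjusted p = 0.058) for Mcm3 and 0.39 (adjusted p = 0.06) for Mcm4. Tyms, which fell in one model and rose in the other, differed by -1.52 ± 0.32 (SE, adjusted p = 0.00059), also under all settings. Foxm1 differed by -1.39 ± 0.45 (SE, adjusted p = 0.016), and by -1.20 (adjusted p = 0.051) without ubiquitous progerin pool 2, while Mybl2 differed by 0.17 ± 0.40 (SE, adjusted p = 0.76), with a 95% interval of -0.66 to 1.01.

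The third comparison set both controls against each other, and so asked what making lamin C only does without progerin. Of the 40 genes 1 was called, Cenpf (chr1:189640606-189688086), where 0.0911% of all tested genes were called higher and 0.0841% lower (0.175% in either direction). Cenpf had 3.69, 2.30, 3.50 and 3.71 CPM in lamin C-only control, against 0.779, 1.83, 1.01 and 0.984 CPM in wild-type control. The pools did not overlap, and the log2 fold change was 1.51 ± 0.25 (SE, adjusted p = 0.013), with the call lost without wild-type pool 3 or 4, without lamin C-only pool 3 or with only both controls in the fit (adjusted p 0.05 to 0.068). All 25 mitotic genes had positive values, with a median of 0.51, and 9 of them had an unadjusted p under 0.05, as did 1052 of all 14269 genes. Mki67 and Ccnb1, whose pools are given above, had log2 fold changes of 0.60 ± 0.35 and 1.44 ± 0.42 (SE, adjusted p = 0.78 and 0.28), and without wild-type pool 1 Mki67 was called at 1.15 (adjusted p = 0.049). Libraries did not overlap and were higher in lamin C-only control for 5 of the 25, Ccnb1, Plk1, Cenpf, Tpx2 and Anln, against 2.42% of all genes tested, and lower for none of the 25, against 2.54%. The mitotic sum was 68.8 ± 7.47 CPM in lamin C-only control, against 48.0 ± 9.28 CPM in wild-type control (SD, n = 4 each). The S-phase median was 0.00, 0 of 13 were called by edgeR, and 0 had an unadjusted p under 0.05, with 0 called by DESeq2 as well.

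**Figure D3:**
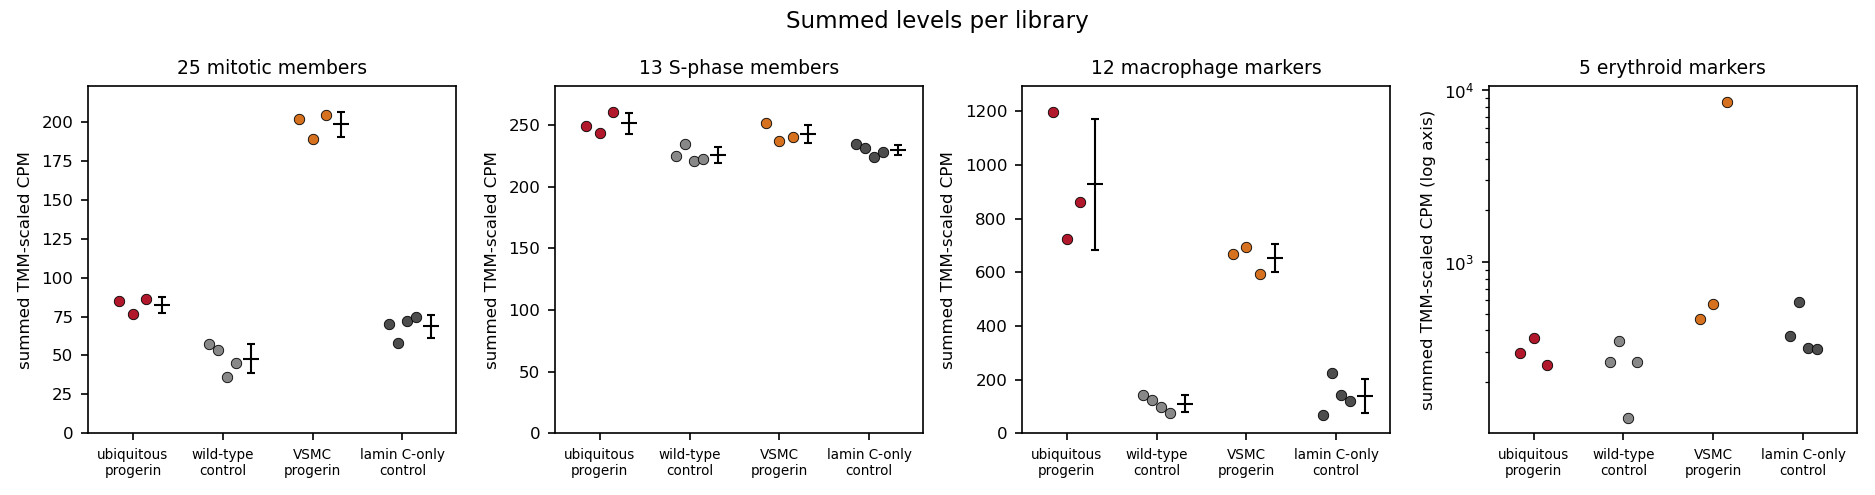
TMM-scaled CPM summed over the 25 mitotic genes, the 13 S-phase genes, 12 macrophage markers and 5 erythroid markers (y axes; the last one logarithmic) in each library, by group (x axis); crosses with bars are mean ± SD, left out on the logarithmic axis. The mitotic sum is 189 to 204 CPM in VSMC progerin and at most 86.4 CPM elsewhere, the S-phase sum is 221 to 261 CPM in all libraries, macrophage markers are higher in both progerin groups, and 1 VSMC progerin pool stands apart in erythroid markers.

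Other genes of the same machinery were counted on 5 further lists, whose counts are to be read against the shares of all tested genes called, 26.3% higher and 28.3% lower in ubiquitous progerin and 19.0% higher and 23.0% lower in VSMC progerin. Of 40 further mitotic genes, 30 rose and 3 fell in VSMC progerin (median log2 fold change 1.54), and 10 rose and 1 fell in ubiquitous progerin (median 0.21), where the share that rose is near the 26.3% of all genes. Cdca8, another passenger subunit, averaged 4.72 ± 0.56 CPM in VSMC progerin, against 1.06 ± 0.39 CPM in lamin C-only control (SD, n = 3 and 4), a rise of 2.15 ± 0.34 on the log2 scale (SE, adjusted p = 3.6e-05). Incenp, the scaffold of that complex, rose in both models, by 0.85 ± 0.14 in ubiquitous progerin and 1.10 ± 0.14 in VSMC progerin on the log2 scale (SE, adjusted p = 4.7e-05 and 3.2e-06). Smc4, a condensin subunit, rose by 0.49 ± 0.06 in ubiquitous progerin (SE, adjusted p = 2.2e-06) and fell by 0.21 in VSMC progerin (SE 0.07, adjusted p = 0.015). Pttg1 (securin), the inhibitor of separase, fell by 0.42 on the log2 scale in VSMC progerin (SE 0.08, adjusted p = 0.00044).

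Of 41 further replication genes, 15 rose and 4 fell in ubiquitous progerin (median 0.25), against 26.3% and 28.3% of all genes. In VSMC progerin 5 rose and 8 fell (median 0.03), both under the 19.0% and 23.0% of all genes. Pole, the catalytic subunit of polymerase epsilon, averaged 14.2 ± 2.40 CPM in ubiquitous progerin, against 2.68 ± 0.73 CPM in wild-type control (SD, n = 3 and 4), a rise of 2.41 ± 0.23 on the log2 scale (SE, adjusted p = 2.7e-08). Rpa1, the single-strand binding protein, and the origin subunit Orc2 also rose there, by 0.69 ± 0.07 and 0.79 ± 0.09 (SE, adjusted p = 1.1e-07 and 4.9e-07). In VSMC progerin Uhrf1, which keeps DNA methylation through replication, rose by 1.74 ± 0.33, and Dbf4, the activator of the origin kinase Cdc7, by 1.46 ± 0.34 (SE, adjusted p = 0.00026 and 0.0019). Dbf4 was also higher in ubiquitous progerin, at 2.55 ± 0.18 CPM against 0.967 ± 0.384 CPM in wild-type control. Uhrf1 was not, at 0.983 ± 0.210 CPM against 1.23 ± 0.27 CPM (SD, n = 3 and 4 in each pair). Timeless, of the fork protection complex, averaged 49.0 ± 2.67 CPM in VSMC progerin, against 26.8 ± 1.66 CPM in lamin C-only control. The mean was 19.0 ± 1.94 CPM in ubiquitous progerin, against 24.9 ± 1.50 CPM in wild-type control (SD, n = 3 and 4 in each pair). It rose by 0.87 ± 0.08 in VSMC progerin and fell by 0.39 in ubiquitous progerin, a difference of effects of -1.26 ± 0.12 on the log2 scale (SE, adjusted p = 7.6e-08).

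Upstream of S phase the lists went both ways. Of 22 G1/S cyclins, CDKs and E2F or RB genes, 6 rose and 8 fell in ubiquitous progerin, against 26.3% and 28.3% of all genes, and 7 rose and 7 fell in VSMC progerin, against 19.0% and 23.0%. The D-type cyclins Ccnd1 and Ccnd2, which start the cycle, were lower in ubiquitous progerin. Ccnd1 averaged 13.1 ± 0.51 CPM there, against 37.5 ± 3.33 CPM in wild-type control, and Ccnd2 averaged 107 ± 1.94 CPM there, against 195 ± 18.3 CPM in wild-type control (SD, n = 3 and 4), falls of 1.52 and 0.87 on the log2 scale (SE 0.10 and 0.07, adjusted p = 2.6e-10 and 1.3e-09). Ccnd1 was also lower in VSMC progerin, at 29.5 ± 1.32 CPM against 41.3 ± 5.46 CPM in lamin C-only control. Ccnd2 was not, at 211 ± 2.22 CPM against 196 ± 8.08 CPM (SD, n = 3 and 4 in each pair). In VSMC progerin the E2F factors E2f1, E2f7 and E2f8 rose by 2.25 ± 0.45, 1.39 ± 0.31 and 2.71 ± 0.57 on the log2 scale (SE, adjusted p = 4e-04, 0.001 and 0.00068). On the same list E2f6 and Tfdp2 were called lower there. Their log2 fold changes were -0.53 ± 0.09 and -0.78 ± 0.09 (SE, adjusted p = 0.00011 and 6.3e-07). Rbl2 (p130), the pocket protein of the DREAM complex, averaged 41.0 ± 0.95 CPM in VSMC progerin, against 67.4 ± 7.51 CPM in lamin C-only control. The mean was 122 ± 6.41 CPM in ubiquitous progerin, against 62.9 ± 3.23 CPM in wild-type control (SD, n = 3 and 4 in each pair). It fell by 0.72 in VSMC progerin and rose by 0.96 in ubiquitous progerin, a difference of 1.68 ± 0.11 (SE, adjusted p = 3.1e-10). Lin52, the MuvB subunit that holds p130, also fell in VSMC progerin, by 0.67, and rose in ubiquitous progerin, by 0.85 (difference 1.52 ± 0.17, SE, adjusted p = 3.8e-07). Of all 6 MuvB and DREAM genes, 3 rose and none fell in ubiquitous progerin, against 26.3% and 28.3% of all genes, and none rose and 1 fell in VSMC progerin, against 19.0% and 23.0%.

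Of 8 CDK inhibitor genes 6 were tested, of which 4 rose and none fell in ubiquitous progerin, against 26.3% and 28.3% of all genes, and 1 rose and 2 fell in VSMC progerin, near the 19.0% and 23.0% of all genes. Cdkn1a (p21), a p53 target, averaged 140 ± 45.1 CPM in ubiquitous progerin, against 42.6 ± 11.1 CPM in wild-type control. The mean was 135 ± 31.8 CPM in VSMC progerin, against 59.1 ± 13.1 CPM in lamin C-only control (SD, n = 3 and 4 in each pair). It rose in both models, by 1.72 ± 0.27 and 1.19 ± 0.27 on the log2 scale (SE, adjusted p = 0.00028 in ubiquitous progerin and 0.0047 in VSMC progerin). Cdkn1c (p57) averaged 61.2 ± 1.91 CPM in ubiquitous progerin, against 35.1 ± 3.95 CPM in wild-type control. The mean was 19.6 ± 1.74 CPM in VSMC progerin, against 37.3 ± 7.39 CPM in lamin C-only control (SD, n = 3 and 4 in each pair), so that it rose in one model and fell in the other (difference of effects 1.73 ± 0.17 on the log2 scale, SE, adjusted p = 2.9e-07). Cdkn1b (p27) averaged 90.1 ± 3.49 CPM in VSMC progerin, against 136 ± 5.84 CPM in lamin C-only control (SD, n = 3 and 4), a fall of 0.60 on the log2 scale (SE 0.06, adjusted p = 4.1e-08).

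**Figure D4:**
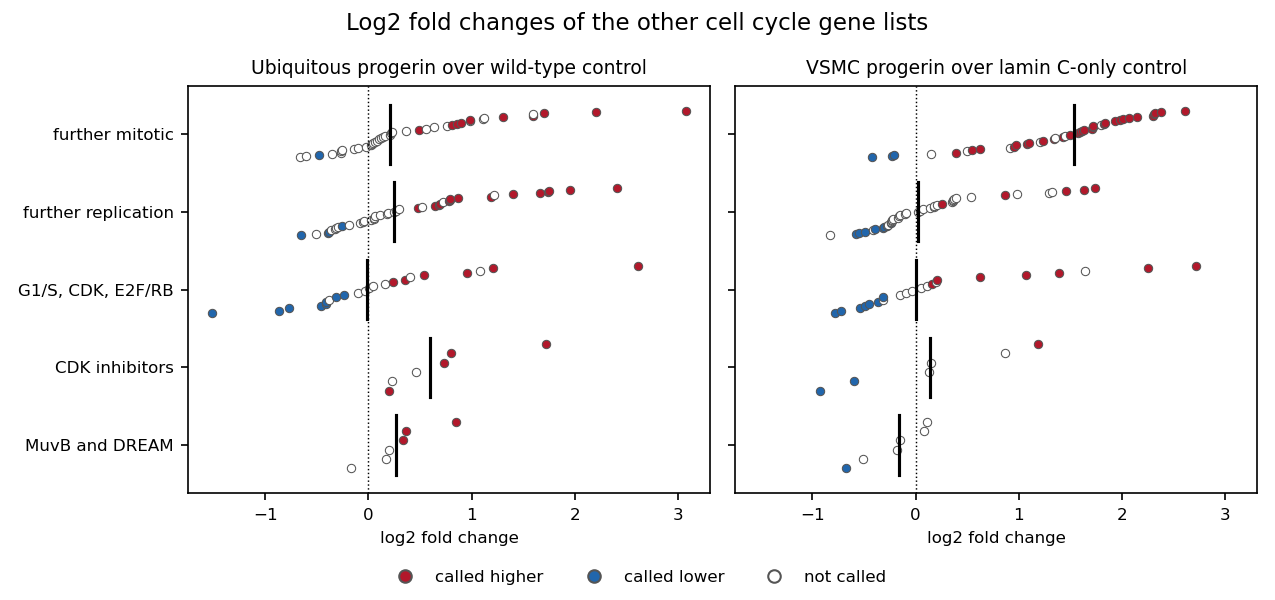
Log2 fold change (x axis) of each tested gene of 5 further cell cycle lists (rows; genes of a list are spread vertically by rank) for ubiquitous progerin over wild-type control (left) and VSMC progerin over lamin C-only control (right); filled points passed an adjusted p of 0.05 and the bar is the list's median. Further mitotic genes lie to the right in VSMC progerin with a median of 1.54, against 0.21 in ubiquitous progerin, and the CDK inhibitors and MuvB genes called lower are all in VSMC progerin.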

How the data were processed

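The authors deposited estimated counts per gene, which per the submitters' processing notes came from Trim Galore 0.6.10, cutadapt 4.1, STAR 2.7.10b and RSEM 1.2.28 on GRCm38, and log2 values from limma (no version given) for 13034 genes, used here as an alternative only. Neither the annotation release nor the strand setting is given in the sources used here. RSEM divides reads that more than 1 gene could have given, which leaves fractions in the counts. Genes with such fractions, among them Ccna2, Prc1, Kif20a, Gins2, Mcm7, Ube2c and Nusap1, are therefore less certain. For Ccnb1, Tyms and Pcna, which have pseudogenes, the lowest and highest counts of each group were whole numbers.

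Estimated counts were rounded, filtered with filterByExpr by group (minimum count 10, total 15, share 0.7), scaled by TMM and tested in 1 fit of 14 libraries with a mean per group. The test was the robust quasi-likelihood test of edgeR 4.0.16 (R 4.3.3). A gene was called at a Benjamini-Hochberg adjusted p under 0.05 over the 14269 genes tested. SE is the absolute log2 fold change over the square root of F. The steps were tested on simulated counts. Depth was 27169784 to 35692385 counts per library, and intervals cover the spread between pools only. DESeq2 1.42.0, limma 3.58.1, other scalings, filters, a replicate block and leaving out each pool were alternatives. Gene positions are from GENCODE M21 (GRCm38) and span the whole gene.

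The members and lists were chosen with earlier results of these data known. All 40 members may be named; 10 of them are given in every pool, with up to 4 called genes per direction with the smallest p, and up to 3 from each further list. Other names were chosen after their values were seen, among them Aurka, Cenpe, Cenpf, Ccna2 and Kif23 in some comparisons, and Mcm6 and Rrm1.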

Additional observations from a re-analysis of the deposited data

Results flagged for a closer look

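The difference between both progerin effects, ubiquitous minus VSMC, passed an adjusted p of 0.05 for 16 of the 40 genes (edgeR's quasi-likelihood test, Benjamini-Hochberg method over all genes), against 44.2% of all tested genes. On the log2 scale it was negative for the mitotic genes Prc1 (-2.11), Kif11 (-1.98), Cenpe (-1.80), Mki67 (-1.59), Aurkb (-1.56), Tpx2 (-1.55), Cenpf (-1.13), Top2a (-1.07) and Kif23 (-0.83). The regulator Foxm1 (-1.39) and the S-phase enzyme Tyms (-1.52) were negative too, and Tyms fell in ubiquitous progerin and rose in VSMC progerin. The difference was positive for the mitotic genes Anln (1.12) and Bub1b (0.80) and the S-phase genes Mcm7 (0.52), Mcm3 (0.46) and Mcm4 (0.46).

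In groups of 4 libraries, 1 library lay far from the other 3 for 5 of 80 gene and group pairs, and chance gives about 1 in 20. The lowest lamin C-only library had 2.30 CPM of Cenpf, 2.88 CPM of Kif23, 0.186 CPM of Hmmr and 17.2 CPM of Mcm4, and the lowest wild-type library had 0.390 CPM of Kif20a. For Cenpf, Hmmr and Mcm4 that library was lamin C-only pool 2, for Kif23 it was lamin C-only pool 4, and for Kif20a it was wild-type pool 3.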

How the results depend on the processing

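All 40 genes were tested under 23 alternative settings in each comparison and 22 for the difference of effects, which needs all 4 groups, and the cause of a change was not tested. In VSMC progerin 18 to 21 mitotic genes were called when 1 pool was left out, and 3 to 4 S-phase genes. In ubiquitous progerin these ranges were 4 to 9 mitotic genes higher, 0 to 1 lower, 0 to 4 S-phase genes higher and 0 to 1 lower. The 3 S-phase genes called higher there became 6 with DESeq2, 5 with RLE size factors, 5 with a filter of over 1 CPM in at least 3 libraries, and 1 with only the groups compared; the 1 called lower became 0 with limma-voom. In the lamin C-only comparison 0 to 2 mitotic genes were called with 1 pool left out, and 0 with only the groups compared. For the difference of effects, leaving out 1 pool gave 6 to 11 mitotic genes lower (7 to 12 under the other settings, 9 as reported), 1 to 2 higher, 1 to 2 S-phase genes lower and a mitotic median of -1.19 to -0.83 (-0.83 without wild-type pool 1). Upper-quartile scaling gave 1 mitotic and 1 S-phase gene higher, and 2 S-phase genes lower, as did DESeq2 and the 1 CPM filter. The signs that turned were of values near 0. Between controls, leaving out 1 pool gave Mcm5 -0.18 to 0.11, Pcna -0.0591 to 0.0395 and Mybl2 -0.25 to 0.032, and upper-quartile scaling gave Pcna 9.46e-05. In the difference of effects the S-phase median was -0.022 to 0.076 with 1 pool left out, and Pcna was -0.022 to 0.11 with 1 pool left out and -0.042 with upper-quartile scaling.

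Pool numbers did not pair the samples: deviations of same-numbered pools correlated by -0.046 to 0.023. With the pool number as a replicate block, 19 mitotic and 4 S-phase genes were called in VSMC progerin. The block ended the calls of Kif23 and Mcm5 in ubiquitous progerin, of Anln and Mybl2 in VSMC progerin, and of Top2a and Aurkb in the difference of effects. Depth limits the rarer genes: Kif20a, Hmmr and Bub1, among others, lay near 1 CPM or below in some controls, where few counts stand behind a value. The same holds for Ccnb1 in wild-type control (8 to 18 counts). In lamin C-only control it holds for Aurkb (20 to 29 counts), Rrm2 (29 to 35 counts) and E2f8 (2 to 21 counts).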
